A study of Arabidopsis thaliana with 16 samples.

Results

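Aliphatic glucosinolates are sulfur-rich defence compounds that Arabidopsis makes from methionine. Methionine is first lengthened in a chain elongation cycle, the lengthened amino acid is then turned into the glucosinolate core, and the side chain is modified last. R2R3-MYB transcription factors of the MYB28 group switch these genes on, carriers of the GTR type move the finished compounds between tissues, and myrosinases, thioglucosidases kept in separate cells, release toxic products when tissue is damaged. The genes described here are 35 loci of this system: 8 of chain elongation, 12 of core synthesis, 7 of side-chain modification, 3 MYB regulators, 3 transporters and 2 myrosinases. They were chosen by locus code with earlier results of these libraries known, among them the low levels of CYP79F1 (AT1G16410) and BCAT4 (AT3G19710) in Col-0 and of TGG2 (AT5G25980) in BRL3ox at the warmer temperature, so those 2 contrasts are described below without a test. The count table has 33296 lines with a gene name and holds 34 of the 35 loci. AOP2 (AT4G03060), a dioxygenase gene, was not analysed here. GSTF11 (AT3G03190), a glutathione S-transferase gene, and AOP3 (AT4G03050), a dioxygenase gene of side-chain modification, had 0 counts in all 16 libraries, MYB76 (AT5G07700) had 25 counts in all and did not pass the expression filter, and 31 genes were tested.

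Messenger RNA was sequenced from hypocotyls, the seedling stems below the seed leaves, of 6-day-old Arabidopsis thaliana seedlings kept on plates at 22 °C or at 28 °C. The 4 genotypes were Col-0, the wild type, brl3-2, a T-DNA insertion mutant of the brassinosteroid receptor gene BRL3 (the SALK_006024C line), pSUC2::BRL3-GFP; brl3-2, which carries BRL3-GFP driven by the phloem promoter SUC2 in that mutant (pSUC2-BRL3 from here on), and BRL3ox, which expresses BRL3-GFP from the 35S promoter. Each genotype was sampled at both temperatures with 2 libraries, and each sample was a weighed amount of hypocotyl tissue, hence of pooled seedlings. The replicates are named biological in the labels, which do not say whether they were separate sowings, and p-values therefore cover only the variation among these libraries, which may be technical. Below, a cool library is one from 22 °C and a warm library one from 28 °C. The labels name no separate transgenic lines within a genotype, and the background of BRL3ox was not given in the sources used here.

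Total counts ran from 19013878 to 26563600 per library. BRL3 itself had 10.5 to 28.7 CPM, the count scaled to the TMM effective library size, in Col-0, at 0.531 to 1.04 CPM in brl3-2, at 38.6 to 178 CPM in pSUC2-BRL3 and at 715 to 2478 CPM in BRL3ox, in the order of the labels. The cool replicate 2 of BRL3ox stands apart, and the warm pSUC2-BRL3 libraries differ from each other. At least 2-fold differences between replicates were found for 4523 and 1576 genes in those groups and for 623 to 1158 in the other 6. In bulk tissue, fewer cells of a type and less RNA per cell cannot be told apart. The summed level of 4 mesophyll markers was 74620 to 112200 CPM in the 8 libraries at 22 °C and 18350 to 32270 CPM at 28 °C, none of them at 0, and all 4 fell in brl3-2 and in pSUC2-BRL3. The sum of 4 phloem markers was 127 to 168 CPM at 22 °C and 122 to 146 CPM at 28 °C, and that of 4 guard and myrosin cell markers 52.7 to 93.8 CPM and 44.8 to 67.4 CPM. The sum of 5 root markers was 2.96 to 17.6 CPM at 22 °C and 4.16 to 7.93 CPM at 28 °C, with up to 3 of the 5 at 0. The part of the marker changes in the glucosinolate results was not tested.

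At 22 °C the wild-type hypocotyl had counts for genes of every step from methionine to the modified glucosinolate. Per length of exon, the highest mean level in Col-0 at 22 °C was that of the myrosinase gene TGG1 (AT5G26000) (529 CPM per kb), followed by IIL1 (AT4G13430) (91.3 CPM per kb), which encodes the large subunit of isopropylmalate isomerase and also serves leucine synthesis. GGP1 (AT4G30530), a gamma-glutamyl peptidase of core synthesis, and GSTU20 (AT1G78370), a glutathione S-transferase, came next at 61.1 and 51.8 CPM per kb. The P450 gene CYP83A1 (AT4G13770), whose enzyme oxidises the aldoximes, had 23.3 CPM per kb and the activator gene MYB28 (AT5G61420) 22.9 CPM per kb. The entry genes of chain elongation and of core synthesis were low in comparison, at 4.18 CPM per kb for BCAT4, the aminotransferase that starts chain elongation, and 3.24 CPM per kb for CYP79F1, the P450 that makes the aldoximes. The second myrosinase gene, TGG2, had 16.2 CPM per kb. Near-identical gene pairs limit such levels. The coding sequences of CYP79F1 and CYP79F2 (AT1G16400) were 91.22% identical and those of IMD1 (AT5G14200) and IMD3 (AT1G31180) 90.51%, so reads could be split between partners, while TGG1 and TGG2 were 79.58% and MAM1 (AT5G23010) and IMS2 (AT5G23020) 78.94% identical.

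GSTF11 read 0 in every library, and all of its exonic bases (100%) also belong to exons of a neighbour on the opposite strand. Of the 368 protein-coding genes covered that way 347, or 94.3%, were at 0 everywhere, against 13% of genes with no shared exonic base, so a level cannot be read for it. Shared bases were 28.2% for FMO GS-OX5 (AT1G12140), 21.2% for BCAT4, 18.6% for AT2G31790, 17% for GTR1 (AT3G47960) and 15.1% for IMD3. How reads over shared bases were counted is not given in the sources used here, and the levels of these 5 genes are uncertain to that extent.

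**Figure D1:**
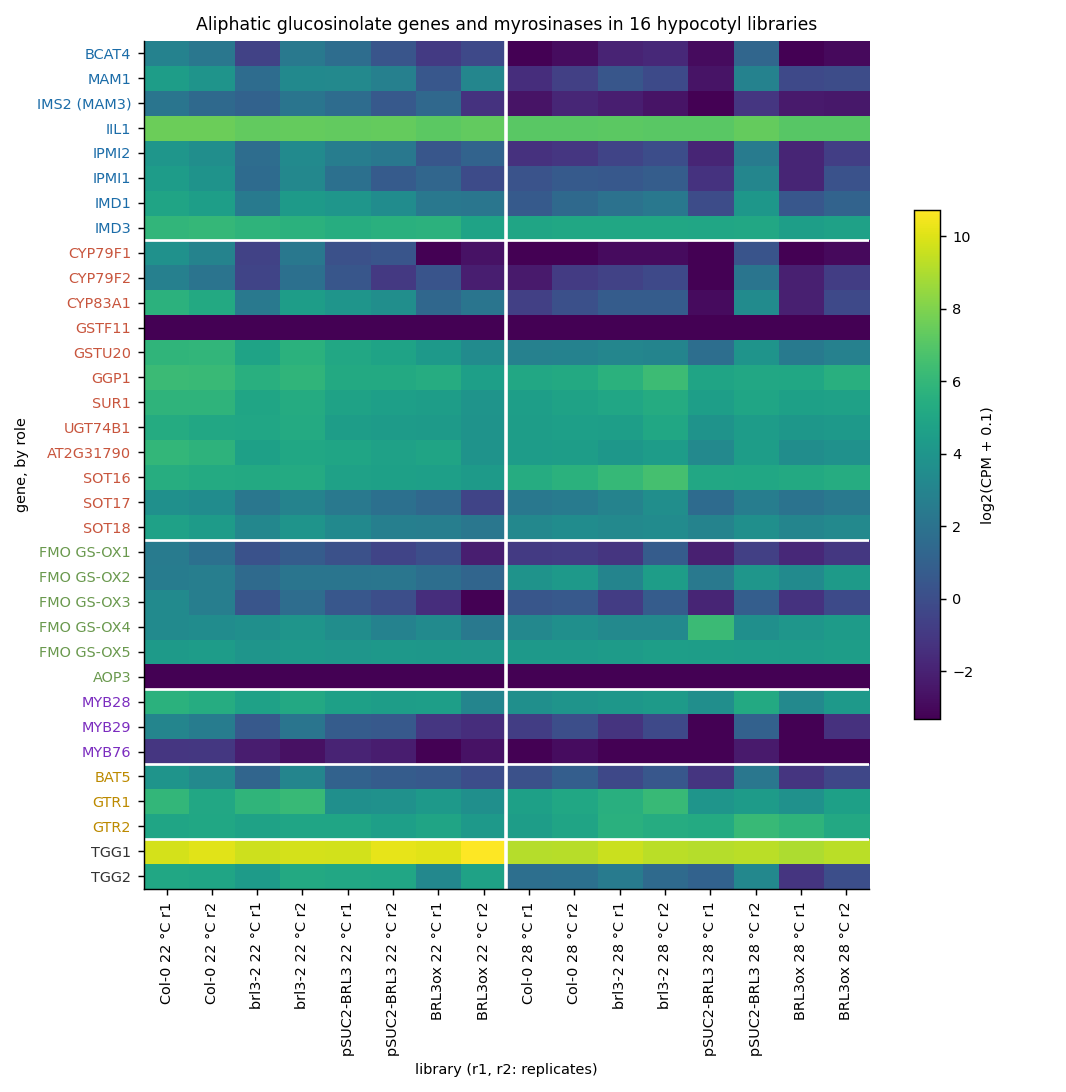
Level of the 34 genes with a line in the count table (rows, grouped by role from chain elongation at the top to myrosinases at the bottom) in each of the 16 libraries (columns, 22 °C left of the white line and 28 °C right of it), as log2 of CPM plus 0.1. BCAT4, CYP79F1 and CYP83A1 are high in Col-0 at 22 °C and low in most libraries at 28 °C, with replicate 2 of pSUC2-BRL3 at 28 °C the highest of them, and TGG1 is high in every library.

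The promoters of these genes were read for letters that their regulators are known to prefer. AC elements are short sites bound by R2R3-MYB proteins, and the G-box is a site of bHLH proteins such as the MYC factors, partners of MYB28 in the jasmonate response. In windows from 250 bases before to 50 bases after each start site, counted on both strands, at least 1 of 3 AC elements was found in 12 of the 35 genes (34.3%) and in 7.29% of the 27443 promoters of the annotation. The form ACCTACC was found in 4 of the 35 (11.4%) and in 1.38% of all. The form ACCAACC was found in 6 (17.1%) against 3.29% of all promoters. The form ACCTAAC was found in 3 (8.57%) against 2.88%. The G-box CACGTG, which overlaps none of the 3, was found in 5 (14.3%) against 7.68%. The members with ACCTACC were IPMI2 (AT2G43100), CYP79F2 and CYP83A1, at 96, 104 and 71 bases before the start site, and CYP79F1, where it began 38 bases after it. These are matches of letters, not measured binding. The 250 bases before the start site are printed for the 3 genes with ACCTACC upstream and for SUR1 (AT2G20610) and BAT5 (AT4G12030), which carry ACCTAAC and ACCAACC, from RefSeq sequence of build TAIR10.1, 5′ to 3′ on the strand of the gene, with the motifs in capitals (an element on the other strand appears as its reverse complement, and capitals in CYP83A1 and SUR1 also mark a G-box).
IPMI2, chr2:17920397-17920646, plus strand: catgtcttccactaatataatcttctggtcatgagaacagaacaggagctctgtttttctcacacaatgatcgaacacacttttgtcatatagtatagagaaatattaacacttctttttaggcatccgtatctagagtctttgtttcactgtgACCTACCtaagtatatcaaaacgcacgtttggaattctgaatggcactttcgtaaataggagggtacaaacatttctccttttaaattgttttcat
CYP79F2, chr1:5604794-5605043, plus strand: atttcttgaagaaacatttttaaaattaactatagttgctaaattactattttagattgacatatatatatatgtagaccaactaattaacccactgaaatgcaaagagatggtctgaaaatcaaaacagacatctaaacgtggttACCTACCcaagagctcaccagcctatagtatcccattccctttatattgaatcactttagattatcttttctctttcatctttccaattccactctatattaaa
CYP83A1, chr4:7992430-7992679, minus strand: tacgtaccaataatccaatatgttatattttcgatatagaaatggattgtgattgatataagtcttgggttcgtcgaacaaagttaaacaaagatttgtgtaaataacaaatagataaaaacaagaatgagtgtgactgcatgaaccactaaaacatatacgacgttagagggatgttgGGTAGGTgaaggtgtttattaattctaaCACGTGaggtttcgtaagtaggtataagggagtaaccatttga
SUR1, chr2:8880441-8880690, minus strand: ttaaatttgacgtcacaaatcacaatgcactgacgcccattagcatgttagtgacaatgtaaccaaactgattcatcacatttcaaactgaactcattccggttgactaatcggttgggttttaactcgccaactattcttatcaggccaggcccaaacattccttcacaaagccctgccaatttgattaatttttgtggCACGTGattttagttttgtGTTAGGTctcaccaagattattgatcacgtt
BAT5, chr4:7210557-7210806, plus strand: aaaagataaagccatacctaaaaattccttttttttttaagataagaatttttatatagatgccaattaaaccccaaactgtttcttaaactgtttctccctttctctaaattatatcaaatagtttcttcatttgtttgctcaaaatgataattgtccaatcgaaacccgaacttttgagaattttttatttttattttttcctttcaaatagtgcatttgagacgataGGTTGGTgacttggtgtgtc

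In the wild type most chain elongation and core genes, MYB28, MYB29 and both myrosinase genes were lower at 28 °C than at 22 °C, while the side-chain genes were mixed. The activator gene MYB28 read 49.1 and 41.5 CPM at 22 °C and 12.7 and 15.3 CPM at 28 °C, and MYB29 (AT5G07690), its close relative, 8.36 and 5.76 CPM against 0.492 and 0.942 CPM. BCAT4 read 7.40 and 4.72 CPM at 22 °C and 0 and 0.0362 CPM at 28 °C, which are 197 counts and 1 count over the groups, a ratio of 355 (95% counting interval 63.0 to 14100). CYP79F1 read 13.5 and 7.70 CPM at 22 °C and 0 in both libraries at 28 °C, at least 207-fold lower against 3 counts over the group. In each of these genes both libraries at 22 °C lay above both at 28 °C. Such intervals and bounds cover counting error only, since the reads carry no molecular identifiers.

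Between those ends, MAM1, a synthase that adds carbon in each elongation cycle, read 22.7 and 15.4 CPM at 22 °C and 0.263 and 0.543 CPM at 28 °C. CYP83A1 read 52.6 and 36.4 CPM against 0.525 and 0.978 CPM. The later core genes changed less. SUR1, the C-S lyase, read 55.9 and 55.8 CPM against 23.6 and 27.4 CPM, and UGT74B1 (AT1G24100), a glucosyltransferase, 40.1 and 33.8 CPM against 22.6 and 24.1 CPM. SOT16 (AT1G74100), a desulfoglucosinolate sulfotransferase that also serves the tryptophan-derived glucosinolates, read 43.2 and 38.9 CPM against 41.7 and 50.6 CPM, and its groups overlapped. Among the side-chain genes, FMO GS-OX2 (AT1G62540), a flavin monooxygenase that oxidises the sulfur of the side chain, read 5.91 and 6.21 CPM at 22 °C and 14.9 and 18.8 CPM at 28 °C, higher in both warm libraries. The summed level of the side-chain genes was 52.5 and 49.2 CPM at 22 °C and 44.7 and 52.4 CPM at 28 °C, and the groups overlapped. Of the 31 genes, 24 passed the threshold of this comparison downward and 0 upward, beside 23.3% and 21.7% of all genes tested. These counts rest on the contrast that chose the genes and nothing is read from them. The median log2 change was -4.29 for the 8 chain elongation genes, -1.21 for 11 core genes, -0.14 for 5 side-chain genes and -1.70 over all 31, against 0.02 over all genes tested. With library sizes alone the median of all genes was 0.55, and 16 genes were lower and 3 higher.

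**Figure D2:**
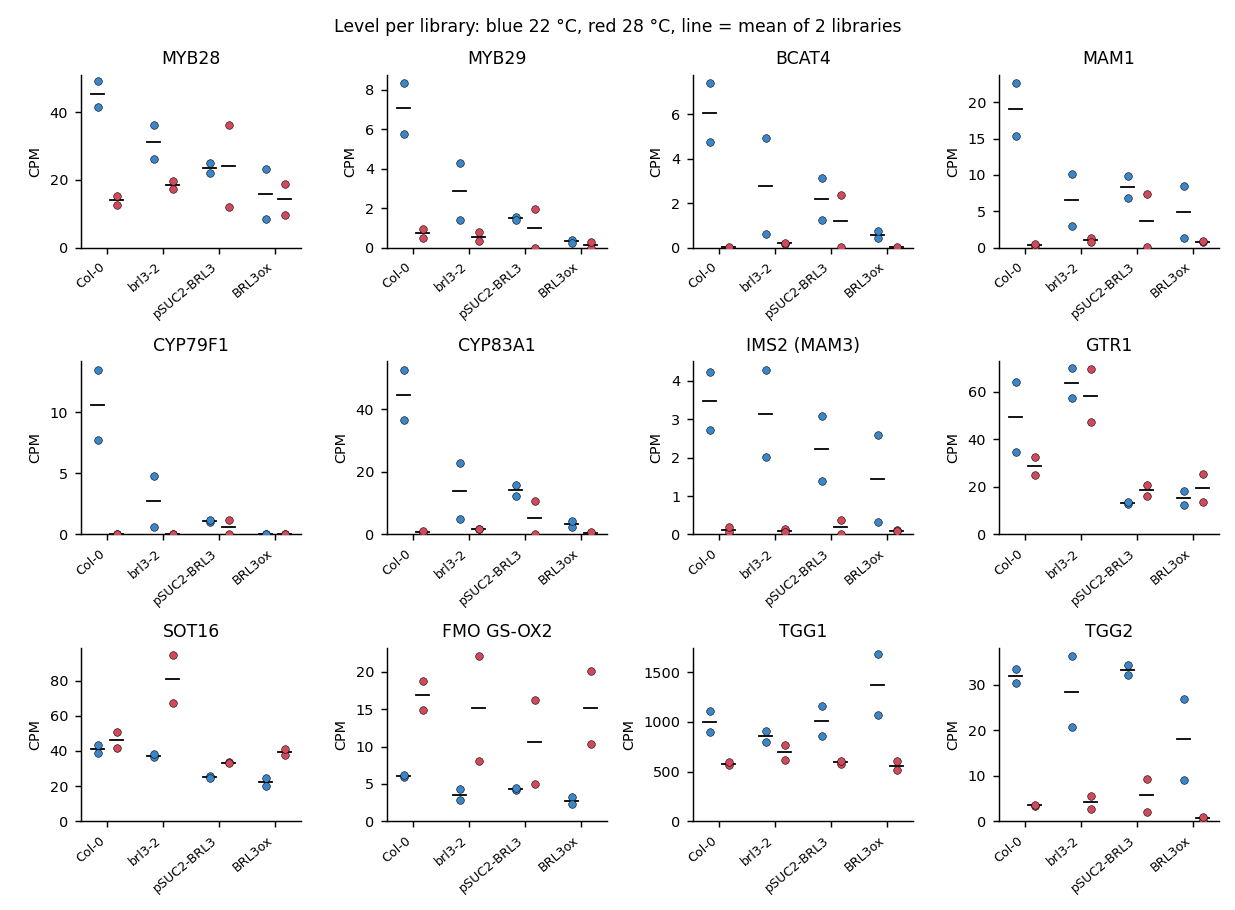
CPM of 12 genes in each library (y axis, from 0), by genotype (x axis), with 22 °C in blue, 28 °C in red and a line at the mean of the 2 libraries. The lines for Col-0 at 22 °C are the highest for MYB28, MYB29, BCAT4, MAM1, CYP79F1 and CYP83A1, while for GTR1 both brl3-2 groups lie above both pSUC2-BRL3 groups.

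In brl3-2 the warmer temperature lowered 8 of the 31 genes, which is 4 chain elongation genes (BCAT4, IMS2, IPMI2 and IMD3), CYP79F1 and GSTU20 of core synthesis, the carrier gene BAT5 and TGG2, and raised 3, SOT16, FMO GS-OX2 and FMO GS-OX5. Of all genes tested 23.3% fell and 25.8% rose, so the share that fell was near the background and the share that rose below it. Without the cool replicate 2 of BRL3ox and either warm library of pSUC2-BRL3, which also set the shared spread, 20 were called (16 lower and 4 higher), beside 61.8% or 61.7% of all genes in those fits. With library sizes alone in place of TMM, where the median of all genes was 0.56, the split was 6 lower and 6 higher. The median over the 31 was -0.68 against 0.04 over all genes. IMS2, also known as MAM3, a synthase of the long-chain products, read 2.01 and 4.30 CPM at 22 °C and 0.130 and 0.0698 CPM at 28 °C, and the groups did not overlap. Its log2 change was -4.90 (SE 1.10, edgeR adjusted p = 0.00361, n = 2 per group). GSTU20 read 28.4 and 49.2 CPM against 8.59 and 8.00 CPM, a change of -2.23 (SE 0.53, adjusted p = 0.00484). The calls of IMS2, GSTU20 and SOT16 held without each of the 4 libraries in turn.

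Most of the other calls of a fall in brl3-2 were lost when single libraries were left out, in fits that also call fewer of all genes. CYP79F1 read 0.590 and 4.80 CPM at 22 °C and 0.0324 and 0.0349 CPM at 28 °C, 95 counts against 2, a ratio of 81.6 (95% counting interval 22.0 to 683, adjusted p = 0.00936). BCAT4 read 0.590 and 4.92 CPM against 0.162 and 0.210 CPM (log2 -3.86, SE 1.32, adjusted p = 0.0309). Replicate 2 at 22 °C was the high library in both genes. Without it the log2 changes were -3.94 for CYP79F1, -1.64 for BCAT4, -2.03 for IPMI2, the small subunit of the isomerase, and -1.20 for BAT5, which imports the oxo acids into plastids, and all 4 calls were lost. They were lost as well without either warm library, with log2 changes of -6.07 and -6.18 for CYP79F1 (replicate 1 and replicate 2 left out), -3.69 and -4.06 for BCAT4, -2.91 and -3.41 for IPMI2 and -2.05 and -2.92 for BAT5. The call of IMD3, an isopropylmalate dehydrogenase (log2 -0.68), did not hold without the cool replicate 1 (-0.61) or without the warm replicate 1 (-0.70) or 2 (-0.67).

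Several genes of the same steps missed the threshold in brl3-2, among them MYB28 (log2 -0.75, SE 0.51, adjusted p = 0.242), MYB29 (-2.39, SE 1.12, adjusted p = 0.0964), MAM1 (-2.66, SE 1.23, adjusted p = 0.0916) and CYP79F2 (-1.62, SE 1.36, adjusted p = 0.345).

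SOT16 moved the other way in the mutant. It read 36.3 and 38.1 CPM at 22 °C and 67.2 and 94.7 CPM at 28 °C in brl3-2, a rise of 1.12 on the log2 scale (SE 0.17, adjusted p = 0.000274), with both warm libraries above both cool ones. FMO GS-OX2 read 2.83 and 4.30 CPM against 8.04 and 22.2 CPM, a rise of 2.08 (SE 0.59, adjusted p = 0.0125), and it missed the threshold without the cool replicate 1 (1.81) or the warm replicate 2 (1.16). FMO GS-OX5 rose by 0.37 (SE 0.11, adjusted p = 0.0166), a call that needed the cool replicate 1 (0.30 without it) and the warm replicate 2 (0.28 without it).

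In pSUC2-BRL3, with BRL3 in the phloem of the same mutant, warmth lowered 4 genes (IMS2, GSTU20, TGG1 and TGG2) and raised 3 (FMO GS-OX4 (AT1G62570), FMO GS-OX5 and GTR2 (AT5G62680)), beside 19.5% of all genes that fell and 19.6% that rose. With library sizes alone, where the median of all genes was 0.61, the split was 2 lower and 9 higher. The median over the 31 was -0.21 against 0.03 over all genes. IMS2 read 3.08 and 1.39 CPM at 22 °C and 0 and 0.368 CPM at 28 °C, a change of -3.55 (SE 1.02, adjusted p = 0.0176). GSTU20 read 33.7 and 28.7 CPM against 3.33 and 15.4 CPM, a change of -1.73 (SE 0.52, adjusted p = 0.0211). The groups did not overlap in either gene. IMS2 missed the threshold without the cool replicate 1 (log2 -2.87) or the warm replicate 1 (-2.58), and GSTU20 without the cool replicate 1 (-1.61) or 2 (-1.84) or the warm replicate 1 (-1.02). Without the warm replicate 2 the change of IMS2 was -8.69, fitted against a library with 0 counts.

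The 2 libraries of pSUC2-BRL3 at 28 °C differed in most of the pathway. CYP83A1 was at 0.0343 CPM in the first and at 10.7 CPM in the second, against 15.9 and 12.3 CPM at 22 °C. MYB28 was at 11.9 CPM in the first and 36.3 CPM in the second, against 25.0 and 22.1 CPM at 22 °C. FMO GS-OX4 ran the other way, with 77.0 CPM in the first, 12.8 CPM in the second and 11.9 and 7.29 CPM in the cool libraries. Its rise of 2.22 (SE 0.63, adjusted p = 0.0157) shrank to 0.42 without the warm replicate 1 and also missed the threshold without the cool replicate 2 (1.92). GTR2, a glucosinolate importer, read 30.8 and 24.4 CPM at 22 °C and 38.1 and 70.2 CPM at 28 °C, a rise of 0.97 (adjusted p = 0.0294) that needed both cool libraries (1.15 without replicate 1 and 0.82 without replicate 2) and the warm replicate 2 (0.47 without it). FMO GS-OX5 rose by 0.36 (SE 0.11, adjusted p = 0.0224), a call that needed the cool replicate 1 (0.29 without it) and the warm replicate 1 (0.32 without it). The number of the 31 genes called was higher without the warm replicate 2 and lower without the warm replicate 1 or either cool library. That of all genes was lower in each of these fits, which leave 1 library in a group. With the cool replicate 2 of BRL3ox left out as well, leaving out the warm replicate 2 gave 19, beside 49.9% of all genes, and leaving out the warm replicate 1 gave 9, beside 41.6%.

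In BRL3ox, where the myrosinase gene TGG2 helped choose the genes, 4 passed the threshold downward and 5 upward, beside 19.3% and 18.3% of all genes. With library sizes alone, where the median of all genes was 0.66, 3 were lower and 12 higher. Nothing is read from these counts. The pathway genes were already low in the cool BRL3ox libraries: BCAT4 read 0.415 and 0.755 CPM at 22 °C and 0 and 0.0297 CPM at 28 °C, and CYP79F1 1 count over both libraries at each temperature. SOT16 read 24.4 and 19.99 CPM at 22 °C and 37.4 and 41.1 CPM at 28 °C, and SOT17 (AT1G18590), a sulfotransferase of the aliphatic branch, 2.59 and 0.629 CPM against 3.98 and 4.99 CPM. In both genes the warm libraries lay above the cool ones.

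**Figure D3:**
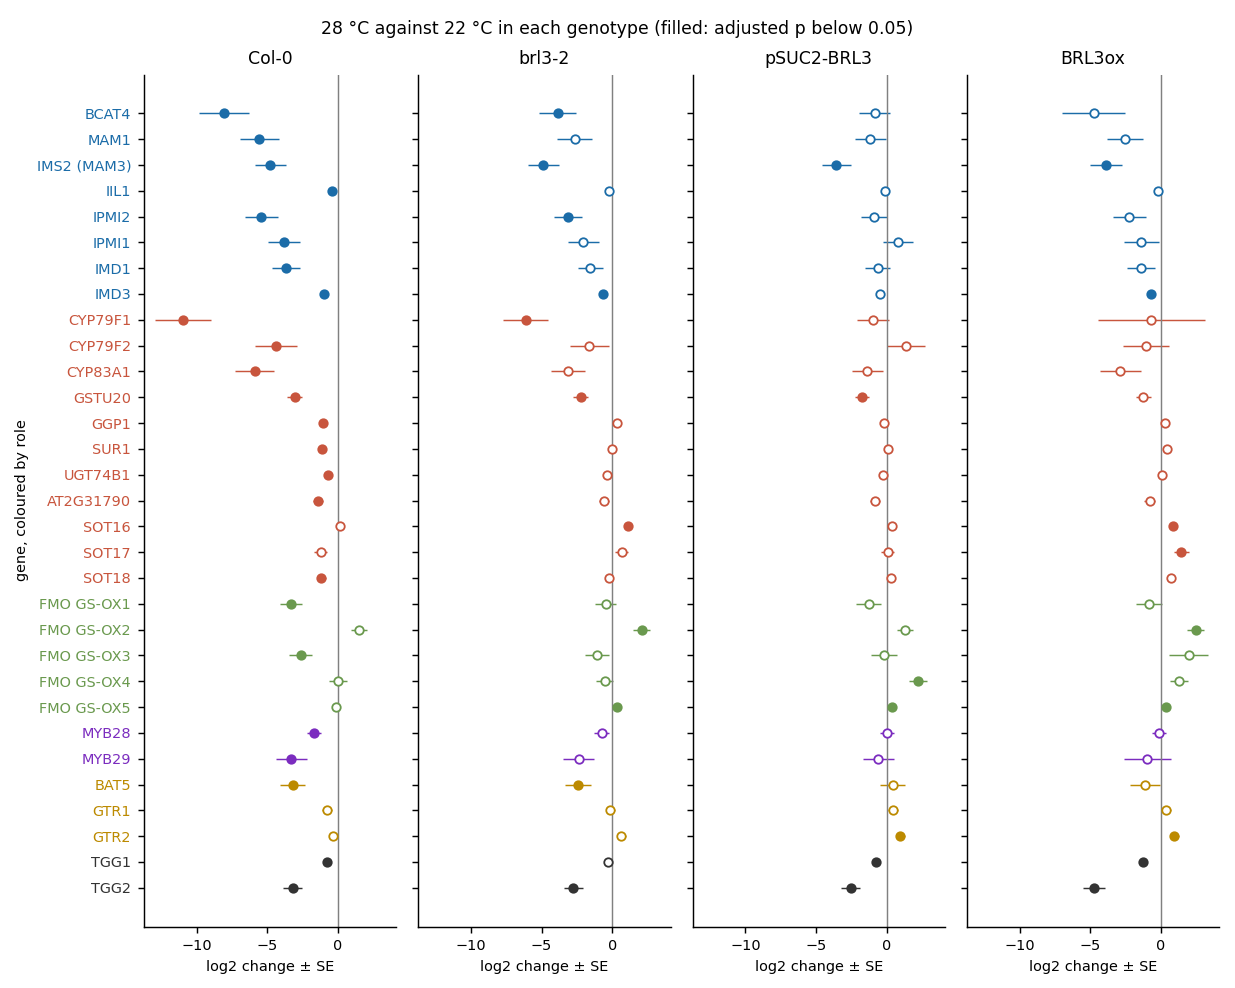
Log2 change from 22 °C to 28 °C with its SE (x axis, the same range in each panel) for the 31 genes tested (y axis, coloured by role), in a panel per genotype, with filled points at an adjusted p below 0.05. The points of Col-0 lie farthest to the left, with CYP79F1 and BCAT4 lowest, and IMS2 and TGG2 are filled and below 0 in all 4 panels. The Col-0 and BRL3ox panels show the contrasts that chose the genes, so their filled points are descriptions.

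Counted over the 4 genotypes, IMS2 and TGG2 passed the threshold downward in all 4, 3 genes (GSTU20, IMD3 and TGG1) fell in 3, 4 fell in 2 and 15 fell in 1. Those counts include the 2 contrasts that chose the genes, and the patterns were not counted over all genes, so nothing is read from them. The log2 changes of IMS2 were -4.79 in Col-0, -4.90 in brl3-2, -3.55 in pSUC2-BRL3 and -3.89 in BRL3ox. GTR1 was called in no genotype, and 6 genes rose in at least 1.

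TGG1 was the most abundant of these messages in every group, per length of exon. It read 897 and 1105 CPM in Col-0 at 22 °C and 562 and 593 CPM at 28 °C. In brl3-2 it read 794 and 913 CPM against 767 and 619 CPM, which did not pass (log2 -0.30, SE 0.22, adjusted p = 0.287). In pSUC2-BRL3 it read 858 and 1160 CPM against 579 and 608 CPM and fell by 0.77 on the log2 scale (SE 0.23, adjusted p = 0.0196). The call did not hold without the cool replicate 2 (-0.53) or either warm library (-0.73 without replicate 1 and -0.79 without replicate 2). The difference between the TGG1 responses of these 2 lines missed the threshold (interaction log2 -0.46, SE 0.32, adjusted p = 0.650).

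TGG2 changed more. It read 33.4 and 30.3 CPM against 3.41 and 3.51 CPM in Col-0, 20.7 and 36.2 CPM against 5.54 and 2.76 CPM in brl3-2, 34.3 and 32.2 CPM against 2.02 and 9.37 CPM in pSUC2-BRL3, and 9.13 and 26.9 CPM against 0.343 and 0.951 CPM in BRL3ox. Every cool library lay above every warm one of its genotype. The change was -2.77 in brl3-2 (SE 0.67, adjusted p = 0.00537) and -2.54 in pSUC2-BRL3 (SE 0.66, adjusted p = 0.0105). The first missed the threshold without the warm replicate 2 of brl3-2 (-2.37) and the second without the warm replicate 1 of pSUC2-BRL3 (-1.82).

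The next comparisons asked how the level of BRL3 bore on the pathway within a temperature. The comparison of pSUC2-BRL3 with brl3-2, which differ in the transgene, uses no Col-0 library. At 22 °C 1 of the 31 genes was called, GTR1, beside 0.307% of all genes, and at 28 °C 2, GTR1 and SOT16, beside 1.61%. GTR1 encodes a plasma membrane importer that loads glucosinolates into phloem. It read 57.4 and 69.8 CPM in brl3-2 and 12.8 and 13.5 CPM in pSUC2-BRL3 at 22 °C, and 47.0 and 69.5 CPM against 16.0 and 20.9 CPM at 28 °C. All 4 brl3-2 libraries lay above all 4 libraries of the complemented line. The log2 difference was -2.27 at 22 °C (SE 0.37, adjusted p = 0.0436) and -1.66 at 28 °C (SE 0.35, adjusted p = 0.0454).

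In Col-0 GTR1 read 63.9 and 34.5 CPM at 22 °C and 24.9 and 32.5 CPM at 28 °C, and in BRL3ox 18.4 and 12.4 CPM and 13.4 and 25.2 CPM. In mean level at 22 °C the order was brl3-2 (63.6 ± 8.75 CPM, SD), Col-0 (49.2 ± 20.8 CPM), BRL3ox (15.4 ± 4.23 CPM) and pSUC2-BRL3 (13.2 ± 0.513 CPM), and in this order the first pair of neighbours and the last pair overlapped. Both GTR1 calls against brl3-2 were lost without any 1 of their 4 libraries, in fits that leave 1 library in a group and call fewer of all genes. At 22 °C the log2 difference was then -2.40 without replicate 1 and -2.12 without replicate 2 of brl3-2, and -2.23 and -2.31 without replicates 1 and 2 of pSUC2-BRL3. At 28 °C it was -1.91, -1.33, -1.48 and -1.85 in the same order. GTR1 shares exonic bases with neighbours on the opposite strand.

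SOT16 read 67.2 and 94.7 CPM in brl3-2 and 33.8 and 32.9 CPM in pSUC2-BRL3 at 28 °C, a log2 difference of -1.28 (SE 0.17, adjusted p = 0.0104). The call was lost without replicate 2 of brl3-2 (-0.99) or replicate 1 of pSUC2-BRL3 (-1.30). Against Col-0 at 28 °C, where SOT16 read 41.7 and 50.6 CPM, brl3-2 was higher by 0.81 (SE 0.17, adjusted p = 0.0235), the 1 gene of 31 called there, beside 3.62% of all genes. That call was lost without replicate 1 (0.68) or replicate 2 (0.96) of Col-0 or replicate 2 of brl3-2 (0.53). The warm Col-0 libraries belong to the contrast that chose the genes, so the comparison with Col-0 is a description. At 22 °C SOT16 did not pass in pSUC2-BRL3 against brl3-2 (log2 -0.55, SE 0.17, adjusted p = 0.132). Whether warmth acted differently on any of the 31 genes in these 2 lines was tested by the interaction, which called 0 of 31 in edgeR, beside 0.0146% of all genes, 4 at an unadjusted p below 0.05 and 1 in DESeq2.

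At 22 °C Col-0 was the highest of the 4 genotypes for most of the pathway. These comparisons use the cool Col-0 libraries of the contrast that chose the genes, so their counts and adjusted p are descriptions. The 3 lines are each compared with the same 2 libraries, and their values are given side by side and not as support for each other. CYP83A1 read 52.6 and 36.4 CPM in Col-0, 4.96 and 22.7 CPM in brl3-2, 15.9 and 12.3 CPM in pSUC2-BRL3 and 2.49 and 4.34 CPM in BRL3ox. MYB28 read 49.1 and 41.5 CPM in Col-0, 26.3 and 36.1 CPM in brl3-2, 25.0 and 22.1 CPM in pSUC2-BRL3 and 23.1 and 8.30 CPM in BRL3ox. Both Col-0 libraries lay above the 6 others in these 2 genes.

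For brl3-2 edgeR called 0 of 31 genes at 22 °C, beside 2.24% of all genes, with 6 at an unadjusted p below 0.05, all lower, and 0 in DESeq2. The median log2 difference was -0.76 against -0.03 over all genes. Without the cool replicate 2 of BRL3ox and the warm replicate 1 of pSUC2-BRL3, 7 were called, all lower, beside 16.4% of all genes. For pSUC2-BRL3 6 of 31 were lower, beside 10.6% of all genes: SUR1 (log2 -1.13), GTR1 (-1.90), SOT18 (AT1G74090) (-1.48), SOT16 (-0.69), GGP1 (-1.03) and UGT74B1 (-0.78), with adjusted p between 0.0102 and 0.0453. Without any 1 of the 4 libraries of these groups fewer of the 6 were called, and fewer of all genes. Each of those fits leaves 1 library in a group. Without the cool replicate 2 of BRL3ox and either warm library of pSUC2-BRL3 20 were lower, beside 31.6% or 31.4% of all genes called in either direction.

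In BRL3ox 20 of 31 genes were lower than in Col-0 at 22 °C and 0 higher, beside 30.2% of all genes changed in either direction. By role that was 10 of 11 core genes, 3 of 8 chain elongation genes, 3 of 5 side-chain genes, both MYB genes tested, GTR1 and BAT5, and neither myrosinase gene. The median was -1.68 against -0.05 over all genes. The cool libraries of both lines belong to the contrasts that chose the genes, so the count and the adjusted p given here are descriptions. SOT18, an aliphatic sulfotransferase, read 25.6 and 20.6 CPM in Col-0 and 6.28 and 4.71 CPM in BRL3ox, a difference of -2.07 (SE 0.32, adjusted p = 0.00306). SUR1 read 22.5 and 15.3 CPM in BRL3ox, and its difference was -1.56 (SE 0.21, adjusted p = 0.00218). CYP79F1, chosen with its levels in Col-0 known, had 1 count in BRL3ox and 345 in Col-0, a ratio of 377 (95% counting interval 67.2 to 14930).

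Other genes called in BRL3ox covered the route. GGP1 read 75.5 and 73.0 CPM in Col-0, 36.2 and 36.7 CPM in pSUC2-BRL3 and 40.9 and 23.8 CPM in BRL3ox, and AT2G31790, annotated as a UDP-glycosyltransferase, 61.9 and 54.3 CPM in Col-0 and 29.5 and 14.6 CPM in BRL3ox. IPMI1 (AT3G58990), another small subunit of the isomerase, read 21.3 and 14.5 CPM in Col-0 and 2.39 and 0.817 CPM in BRL3ox. FMO GS-OX1 (AT1G65860) read 5.55 and 3.56 CPM in Col-0 and 0.934 and 0.126 CPM in BRL3ox, and FMO GS-OX3 (AT1G62560) 10.4 and 6.28 CPM against 0.259 and 0 CPM. In these genes both Col-0 libraries lay above those of each line listed. MAM1 (log2 -1.98, SE 1.12, adjusted p = 0.192), IMD1 (-2.47, SE 0.94, adjusted p = 0.0662) and CYP79F2 (-3.05, SE 1.41, adjusted p = 0.117) missed the threshold. MYB76, the third of the MYB genes and untested, read 0.358 and 0.388 CPM in Col-0 and 0 and 0.0629 CPM in BRL3ox.

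Leaving out 1 of the 4 libraries puts 1 library in a group, and without BRL3ox replicate 1 more of all genes were called. As for all genes, the BRL3ox count was lower without either Col-0 library or BRL3ox replicate 2, the cool library that stands apart. Fits without that BRL3ox library and a warm library of pSUC2-BRL3 also leave 1 cool BRL3ox library, and no count is read from them. SUR1, SOT17, SOT18 and FMO GS-OX3 kept their calls without each of the 4 libraries in turn. CYP79F1 lost its call without Col-0 replicate 1, and its log2 difference ran from -10.99 to -7.28 over those fits. Mesophyll markers summed to 98130 and 112200 CPM in BRL3ox and 74620 and 84390 CPM in Col-0 at 22 °C. The root markers summed to 7.16 and 2.96 CPM in BRL3ox, 6.88 and 7.52 CPM in pSUC2-BRL3, 13.3 and 14.1 CPM in brl3-2 and 17.2 and 17.6 CPM in Col-0 at that temperature. Their part in the result was not tested.

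**Figure D4:**
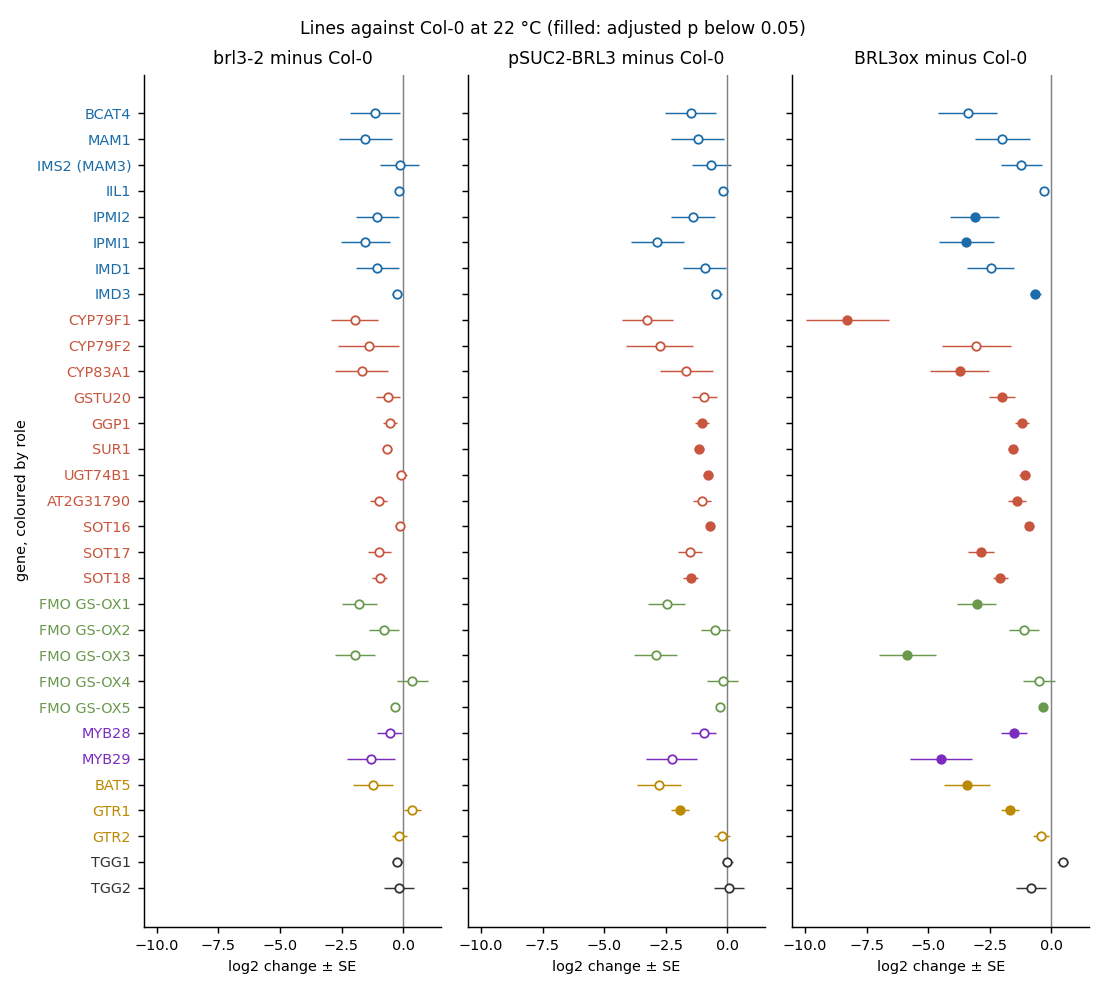
Log2 difference from Col-0 at 22 °C with its SE (x axis, the same range in each panel) for the 31 genes tested (y axis, coloured by role), for brl3-2, pSUC2-BRL3 and BRL3ox. No point is filled (adjusted p below 0.05) for brl3-2, 6 are for pSUC2-BRL3 and 20 for BRL3ox, and the 3 panels share the 2 Col-0 libraries. The cool Col-0 and BRL3ox libraries belong to the contrasts that chose the genes, so the filled points are descriptions.

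At 28 °C few differences from Col-0 were called. These comparisons use the warm Col-0 libraries of the contrast that chose the genes, so their counts are descriptions. For pSUC2-BRL3 edgeR called 0 of 31 genes, beside 0.858% of all genes, with 8 at an unadjusted p below 0.05 and 5 called in DESeq2. For BRL3ox edgeR called 0, beside 2.07%, with 3 unadjusted and 1 in DESeq2. CYP83A1 then read 0.525 and 0.978 CPM in Col-0, 1.62 and 1.57 CPM in brl3-2, 0.0343 and 10.7 CPM in pSUC2-BRL3 and 0.137 and 0.743 CPM in BRL3ox. The medians over the 31 were 0.26 for brl3-2, 0.39 for pSUC2-BRL3 and -0.20 for BRL3ox.

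The difference between the warmth responses of a line and of Col-0 is an interaction, and each interaction contains the Col-0 contrast that chose the genes. The counts given for them are therefore descriptions. For brl3-2 edgeR called 0 of 31, beside 0.878% of all genes, with 6 unadjusted and 3 in DESeq2. For pSUC2-BRL3 it called 0, beside 1.95%, with 17 unadjusted and 6 in DESeq2. Leaving out a warm library of pSUC2-BRL3 leaves 1 library in that group, and no count is read from such fits. The interaction for BRL3ox is made of both contrasts that chose the genes, so its values are a description with no test. SUR1 and SOT18 passed its threshold, beside 2.58% of all genes, and nothing is read from that count. SUR1 read 22.5 and 15.3 CPM at 22 °C and 24.9 and 26.0 CPM at 28 °C in BRL3ox, against 55.9 and 55.8 CPM and 23.6 and 27.4 CPM in Col-0, an interaction of 1.56 (SE 0.30). SOT18 read 6.28 and 4.71 CPM and 8.37 and 9.66 CPM in BRL3ox, against 25.6 and 20.6 CPM and 9.45 and 11.2 CPM in Col-0, an interaction of 1.87 (SE 0.43). In both genes the warm levels of the lines were close and the cool levels far apart. The values ran from 1.31 to 1.86 for SUR1 and from 1.68 to 2.096 for SOT18 with each of the 8 libraries left out in turn, and both genes missed the threshold without any 1 of the Col-0 or the warm BRL3ox libraries, SOT18 also without the cool replicate 2 of BRL3ox.

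In each group most of the 31 genes differed between the replicates in the same direction. At 28 °C replicate 2 was higher for 29 genes in Col-0, 22 in brl3-2, 28 in pSUC2-BRL3 and 29 in BRL3ox. At 22 °C it was higher for 7, 30, 8 and 8 genes in the same order. Whether the warm libraries of the same number share a batch was not tested. In brl3-2 at 22 °C 30 of the 31 genes were higher in replicate 2 and 12 were at least 2-fold apart, with a median log2 difference of 0.74. In pSUC2-BRL3 at 28 °C 28 were higher in replicate 2 and 20 were 2-fold apart, with a median of 1.598. In BRL3ox 11 were 2-fold apart at 22 °C and 7 at 28 °C, and in the other 4 groups 0 to 4. The cool BRL3ox pair was mixed, with MAM1 (2.63), TGG2 (1.55) and CYP79F1 (0.80) higher in replicate 2 and IMS2 (-2.75), CYP79F2 (-2.54) and IPMI1 (-1.45) lower. The median difference over all genes lay between -0.02 and 0.02 in the 8 groups. The difference of MYB28 between replicates had the same sign as the median of 19 chain elongation and core enzyme genes in 8 of 8 groups, and so did that of MYB29. Of those 19 genes, 6 were higher in replicate 2 in BRL3ox at 22 °C and 13 in brl3-2 at 28 °C, and in the other 6 groups 2, 4, 17 or 18 were. In pSUC2-BRL3 at 28 °C MYB28 differed by 1.598, MYB29 by 4.58 and the median enzyme by 2.18, and in Col-0 at 22 °C by -0.24, -0.53 and -0.31. The 8 pairs of replicates differ in other ways as well, and this is a description with no test.

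**Figure D5:**
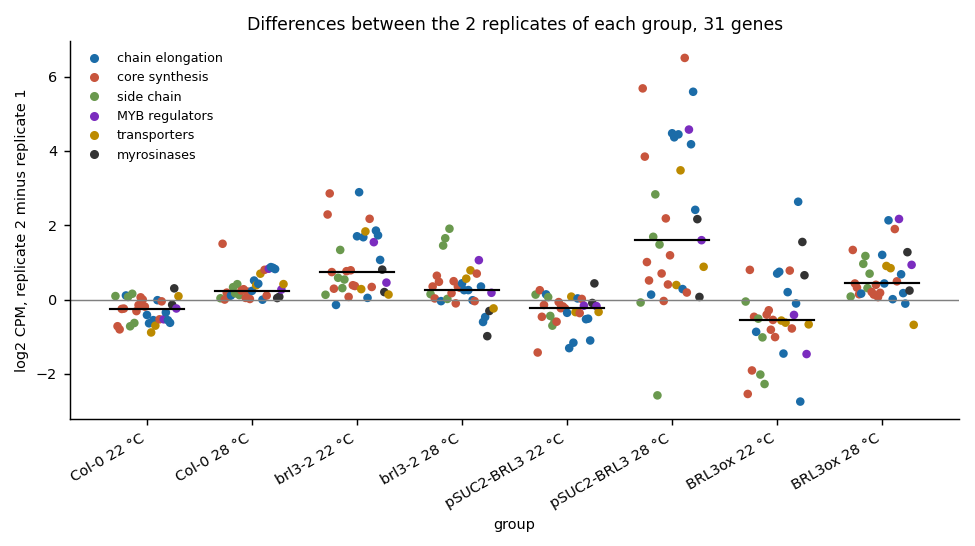
Log2 CPM of replicate 2 minus replicate 1 (y axis) for the 31 genes tested in each of the 8 groups (x axis), coloured by role, with a line at the median. Medians are 0.74 in brl3-2 at 22 °C and 1.598 in pSUC2-BRL3 at 28 °C, where chain elongation, core and MYB genes reach the highest values.

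The neighbouring pathways were read from lists of genes that are not among the 35. Of the tryptophan-derived, or indole, branch 6 of 10 genes tested rose and 0 fell with warmth in brl3-2, and 6 rose and 0 fell in pSUC2-BRL3, beside the 25.8% and 19.6% of all genes that rose. CYP81F2, a P450 that modifies indole glucosinolates, rose by 2.84 in brl3-2 and IGMT1, a methyltransferase acting after it, by 2.79, and MYB51, an activator of the branch, by 2.64. Their adjusted p in brl3-2 were 0.00416, 0.000115 and 0.00155. In brl3-2, where 25.8% of all genes rose and 23.3% fell, of 12 proteins of breakdown 4 rose and 2 fell. NSP1, a nitrile specifier protein, rose by 1.58 and PEN2, an atypical myrosinase, by 1.62, while ESM1, which shifts products towards isothiocyanates, fell by 2.48. Of 9 further aliphatic genes tested 3 fell, AT2G43090 by 0.85, IMD2 by 0.73 and BCAT3 by 0.66, and 0 rose. Of 10 genes for the sulfate donor and glutathione 2 fell, APS1, an ATP sulfurylase, by 1.34 and APK3, an adenylylsulfate kinase, by 0.97, and 0 rose. The falls in the breakdown, further aliphatic and sulfate lists were near the share of all genes, as were the rises in the breakdown list. In the further aliphatic and sulfate lists the rises, at 0, lay below the 25.8% of all genes.

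Of 6 upstream regulators tested 2 rose with warmth in brl3-2, beside 25.8% of all genes: MYC4, a bHLH partner of MYB28, by 1.42 (adjusted p = 0.00129) and EIL3, the sulfur-limitation regulator also called SLIM1, by 0.47 (adjusted p = 0.00905). MYC2 was listed at 0 in every library, and 98.5% of its exonic bases are shared with exons of another gene. At 22 °C 4 of the 6 were called lower than in Col-0 in each line, beside 2.24% of all genes changed in brl3-2, 10.6% in pSUC2-BRL3 and 30.2% in BRL3ox. The calls in brl3-2, that of MYC4 among them, were lost without either cool brl3-2 library, in fits that leave 1 library in a group. MYC4 differed by -1.37 in brl3-2 (SE 0.27, adjusted p = 0.0343), -1.52 in pSUC2-BRL3 (SE 0.27, adjusted p = 0.0094) and -1.19 in BRL3ox (SE 0.27, adjusted p = 0.0102), with the Col-0 libraries shared by all 3.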

How the data were processed

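RNA-seq of 16 hypocotyl libraries was analysed. Per the labels, libraries came from a stranded mRNA kit. The submitters' processing notes name FastQC 0.11.2, Trimmomatic 0.38, HISAT2 2.1, featureCounts 1.6.2 and TAIR10. The deposited table holds raw read counts per gene as the authors made them. Its 1 line without a gene name held at most 0.00463% of a library and was left out. One edgeR 4.0.16 quasi-likelihood fit under R 4.3.3 took all 16 libraries as 8 groups, with TMM scaling, a filter of 10 counts and a total of 15, which left 20505 genes. Tests were two-sided with Benjamini-Hochberg adjustment within each comparison and a threshold of 0.05. The fit was also run on simulated counts with a single spread for all genes and no library standing apart. That run does not cover the libraries that stand apart here. Each SE was worked back from the test, as the absolute log2 change divided by the square root of its F statistic. Exon lengths, promoters and coding identity came from RefSeq TAIR10.1, with coding sequence used in place of the planned protein comparison. The genes and lists were chosen with earlier results of these data known. In neighbouring pathways, up to 3 genes per list are named, those with the largest called changes in brl3-2 and a mean of 5 CPM or more where higher. Alternatives were DESeq2 1.42.0, DESeq2 size factors, no filter on low counts, a replicate block, leaving out libraries and, added after seeing the data, library sizes alone.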

Additional observations from a re-analysis of the deposited data

Results flagged for a closer look

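The difference between the warmth responses of BRL3ox and Col-0 passed the threshold of the interaction for 2 genes. It was 1.87 (SE 0.43) for SOT18 and 1.56 (SE 0.30) for SUR1 on the log2 scale. The warmth contrasts of both lines chose the genes, so these values are a description and no test is drawn from them.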

How the results depend on the processing

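With 2 libraries per group and 8 residual degrees of freedom, many calls depended on single libraries: of 83 called values, 19 kept their call without each of their libraries in turn. The numbers of genes called then ran from 9 to 21 for warmth in Col-0, 3 to 9 in brl3-2, 2 to 13 in pSUC2-BRL3 and 4 to 9 in BRL3ox. At 22 °C they ran from 0 to 3 for pSUC2-BRL3 and from 4 to 20 for BRL3ox against Col-0, and were 0 for pSUC2-BRL3 against brl3-2. At 28 °C they ran from 0 to 1 for brl3-2 and for pSUC2-BRL3 against Col-0 and from 0 to 2 for pSUC2-BRL3 against brl3-2. For the interactions they ran from 0 to 4 for pSUC2-BRL3 and from 0 to 13 for BRL3ox against Col-0, and from 0 to 1 for pSUC2-BRL3 against brl3-2.

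The pair of libraries that stand apart also sets the shared spread. Counts below are for the fits without replicate 2 of BRL3ox at 22 °C and replicate 1 or replicate 2 of pSUC2-BRL3 at 28 °C. Those against Col-0 are descriptions, since its libraries belong to the contrast that chose the genes. Warmth in brl3-2 gave 20 and 20, beside 61.8% and 61.7% of all genes. For brl3-2 against Col-0 they were 7 and 6 at 22 °C (16.4% and 16.3%) and 4 and 3 at 28 °C (14.2% and 14.1%). For pSUC2-BRL3 at 22 °C they were 20 and 20 against Col-0 (31.6% and 31.4%) and 3 and 3 against brl3-2 (17.8% and 17.8%). BRL3ox against Col-0 at 28 °C gave 5 and 5 (16.7% and 16.7%). The interaction of brl3-2 with Col-0 gave 8 and 8 (13.4% and 13.3%). Comparisons with 1 library left in a group are not counted here. With replicate 2 left out, 4 values that then passed the threshold had the opposite sign to that with all libraries: CYP79F2 (-7.29), IPMI1 (-2.98) and MYB28 (-0.97) for warmth in pSUC2-BRL3, and GSTU20 (-1.30) for pSUC2-BRL3 against brl3-2 at 28 °C. The cause was not tested.

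With library sizes alone 11 genes were called for warmth in pSUC2-BRL3, 15 in BRL3ox and 1 in the interaction of BRL3ox with Col-0. Among values called with or without TMM, FMO GS-OX5 in Col-0 changed sign (0.39), as did IIL1 in Col-0 (0.13), brl3-2 (0.28), pSUC2-BRL3 (0.46) and BRL3ox (0.46). DESeq2 called 11 genes for pSUC2-BRL3 against Col-0 at 22 °C and 5 at 28 °C, 1 for BRL3ox against Col-0 at 28 °C and 4 for pSUC2-BRL3 against brl3-2 at 28 °C. In the interactions it called 3 for brl3-2, 6 for pSUC2-BRL3 and 6 for BRL3ox against Col-0, and 1 for pSUC2-BRL3 against brl3-2. The shares of all genes called with library sizes alone and in DESeq2 are not given here, so nothing is read from these counts. DESeq2 size factors and no low-count filter moved no count by more than 1.5 times.

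Over 28 pairs of groups, the correlation of deviations between same-numbered libraries ran from -0.294 to 0.267, with a median of -0.001 and 8 above 0.1. Whether same-numbered libraries within a temperature share a batch was not tested. A block with a single term for all groups cannot show it. With a replicate block 0 genes were called for pSUC2-BRL3 against brl3-2 at 22 °C, 1 at 28 °C and 1 in the interaction of BRL3ox with Col-0.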
